A study of Mus musculus with 6 samples.

Results

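The integrin and laminin genes were read across RNA-seq libraries of cultured mouse prostate stroma, as 37 of the 24346 gene symbols measured. Membership was set by symbol alone, with no cutoff on a measured value. It covers every Itga, Itgb, Lama, Lamb and Lamc symbol followed by a chain number or letter. These genes and the gene lists used below were chosen with earlier results of these data known. The set holds 18 integrin α chains, 8 integrin β chains, 5 laminin α chains, 3 laminin β chains and 3 laminin γ chains, and 50 of the 34535 transcript models. All 37 carry protein-coding annotations in GENCODE M21. Exons of Itga1, Itga4, Itga7, Itga8, Itga10, Itgad, Itgam, Itgav, Itgb4, Lama2, Lama3 and Lamc3 overlap other annotated genes, so their values may include reads of those.

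Both groups were fresh primary cultures from the prostates of C57BL/6 mice aged 8 to 12 weeks. All cells were grown on collagen I with 1e-10 M DHT (dihydrotestosterone), were selected for attachment within 30 min of replating, and were used within 3 weeks of dissociation. The control group (vec in the labels) is labelled with the vector, given in the protocols as the lentiviral FU-CGW, and the other group carries S37A β-catenin cloned into it. In S37A β-catenin an alanine replaces a serine that the destruction complex phosphorylates, which slows its breakdown, and β-catenin is the intracellular carrier of the canonical Wnt signal. Each group had 3 libraries. The labels do not say whether these came from separate mice, cultures or infections, so p-values here reflect only the spread among these 6 libraries, which may be technical. Collagen-coated plates were common to all 6 libraries, and the attachment step selects cells by adhesion in both groups.

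Integrins are receptors of 1 α and 1 β chain that hold cells to the extracellular matrix and pass force and signals to the cytoskeleton. Laminins are trimers of an α, a β and a γ chain that build basement membranes, the thin sheets on which epithelium, muscle and nerve rest. In the prostate, stromal smooth muscle and fibroblasts contact collagen and fibronectin, and a laminin-rich basement membrane lies between them and the glands.

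Expression is FPKM, the number of fragments relative to transcript length and library depth, so levels of different genes can be set side by side. The widths of the deposited confidence intervals corresponded to 41.0 to 51.4 M fragments per library. Axin2, a feedback target of β-catenin, ran from 0.0921 to 0.169 FPKM in vector and from 2.74 to 3.29 FPKM in S37A libraries, and Ctnnb1, which encodes β-catenin, was at 99.1 to 116 and 132 to 146 FPKM. Reads of the introduced and the endogenous Ctnnb1 were not separated. The stromal marker list, with collagens and contractile genes, had 14 of 15 members above the expression filter. It summed to 11378 to 11690 FPKM in vector and 13026 to 13077 FPKM in S37A libraries. By the test below 6 members (42.9%) were higher (Acta2, Tagln, Myh11, Cnn1, Des and Thy1) and 1 (7.14%) was lower (Pdgfra). These are shares of the 14, and over all genes tested 6.06% were called higher and 19.9% lower. The collagens Col1a1, Col1a2 and Col3a1 were not called, and Lum was under the filter. Epithelial markers had 11 of 15 members above the filter and summed to 46.4 to 58.3 FPKM and 44.1 to 58.8 FPKM, with none called (limma; 2 higher at an unadjusted p under 0.05) and Trp63 and Pbsn at or near 0. Endothelial markers had 11 of 12 above the filter and summed to 112 to 128 FPKM and 109 to 113 FPKM, none called (limma; 1 lower at an unadjusted p under 0.05).

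A gene was tested where its mean over the 6 libraries was at least 0.5 FPKM, and 27 of the 37 genes passed: 18 integrins and 9 laminins. Lamc3 at 0.479 and Lama3 at 0.408 FPKM lay just under this level, and Itga2b at 0.532, Itgb2 at 0.562 and Itga10 at 0.598 FPKM just above it. Differences below are S37A minus vector on the log2(FPKM + 1) scale, which understates changes of low genes, with limma's standard error and its p-value adjusted by Benjamini-Hochberg over all 12022 genes tested. A gene was called at an adjusted p under 0.05.

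Of the 27 tested genes, 3 were higher in S37A (Itga5, Itgb1 and Itga7) and 2 lower (Itga2 and Lamb1), while 22 were not called. These are 11.1% and 7.41% of the 27, while over all genes tested 6.06% were called higher and 19.9% lower, and the median difference of all genes was -0.07, against 0.03 for the 27. Median-ratio scaling of the libraries changed the split over all genes to 10.5% higher and 7.86% lower, and that of the integrins and laminins to 4 higher and 2 lower. Without vector library 1 there were 5 higher, and without S37A library 1 there were 4 lower. The 3 S37A values lay all above or all below the 3 vector values for 11 of the 27 genes, 40.7%, against 47.8% of all genes tested. That share was no higher than among genes in general, and the results below are about single chains. With 3 libraries against 3, an exact two-sided permutation test of a single gene has 20 arrangements and cannot give a p under 0.1, the value it gave for Itga2.

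**Figure D1:**
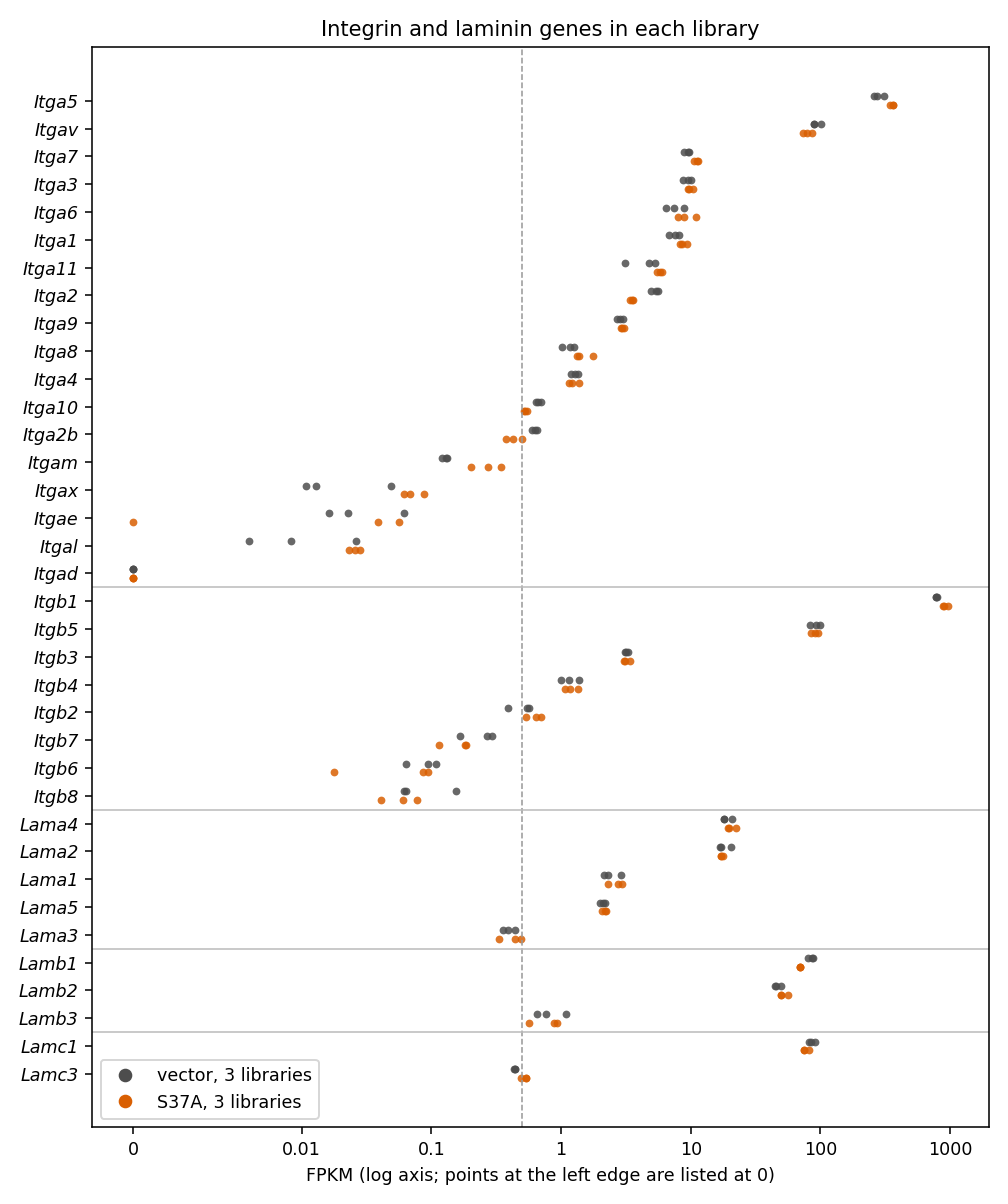
FPKM of the integrin and laminin genes reported here in each of the 3 vector (grey) and 3 S37A (orange) libraries, on a log axis with points listed at 0 at the left edge; the dashed line is the 0.5 FPKM filter. Itgb1 is the highest, at 780 to 968 FPKM, followed by Itga5 at 261 to 364 FPKM, while the leukocyte chains Itgam, Itgax, Itgal, Itgae and Itgad lie under 0.5 FPKM.

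Few chains made up most of the integrin RNA, and receptor protein was not measured. Integrin β1, encoded by Itgb1, is the common partner of the collagen, laminin and fibronectin α chains, and it made up 89.0% ± 0.80 (SD, n = 3) of the summed integrin β FPKM in vector libraries and 90.5% ± 0.92 in S37A libraries. Integrin α5, encoded by Itga5, pairs with β1 to form the classical fibronectin receptor. Its share of the summed integrin α FPKM was 66.1% ± 2.41 (SD, n = 3) in vector and 72.6% ± 1.79 in S37A libraries. Integrin αv, from Itgav, pairs with several β chains and binds RGD motifs in vitronectin, fibronectin and latent TGF-β; it followed at 22.0% ± 1.99 and 16.2% ± 1.30. Summed over the 18 α chains, expression was 424 ± 23.6 FPKM in vector and 492 ± 4.95 FPKM in S37A libraries (SD, n = 3), a ratio of 1.16, and over the 8 β chains 880 ± 5.56 and 1008 ± 43.4 FPKM, a ratio of 1.15. The 6 totals of each kind did not overlap between the groups, and most of each total is Itga5 or Itgb1.

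Itga5 (chr15:103344286-103366763 on the minus strand, mm10) was at 261, 273 and 308 FPKM in vector and 346, 362 and 364 FPKM in S37A libraries. Every S37A library was above every vector library. The means were 281 ± 24.7 and 357 ± 10.2 FPKM (SD, n = 3), a ratio of 1.27, and the difference was 0.35 with a standard error of 0.0622 and a limma adjusted p of 0.0115. The call held in all 17 alternative settings tried.

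Itgb1 (chr8:128685654-128733200, plus strand) was at 782, 787 and 780 FPKM in vector and 968, 880 and 888 FPKM in S37A libraries. The vector libraries lay close together, and S37A library 1 was the highest of the other group. The means were 783 ± 3.65 and 912 ± 48.6 FPKM (SD, n = 3), a ratio of 1.16, with a difference of 0.22, a standard error of 0.0435 and a limma adjusted p of 0.0155. The call held in the 16 alternatives that tested the gene, which is itself among the 100 most abundant. The FPKM ratio of Itga5 to Itgb1 within a library was 0.358 ± 0.0326 in vector and 0.393 ± 0.0310 in S37A libraries, and the groups overlapped. Thus the 2 chains of the α5β1 receptor were both higher, and their ratio did not separate the groups.

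Itgav, by contrast, was at 89.4, 101 and 88.8 FPKM in vector and 86.1, 73.5 and 79.3 FPKM in S37A libraries. The groups did not overlap, at 93.0 ± 6.71 and 79.6 ± 6.32 FPKM (SD, n = 3), but the difference of -0.22 with a standard error of 0.0699 missed the threshold at a limma adjusted p of 0.0537. Over the alternatives that p ran from 0.0217 to 0.183, and it was under the threshold without S37A library 1 (0.0390) and with sample weights (0.0217). The FPKM ratio of Itga5 to Itgav within a library was 2.91, 2.71 and 3.47 in vector and 4.01, 4.93 and 4.59 in S37A libraries. All S37A libraries thus held more Itga5 relative to Itgav than any vector library, with means of 3.03 ± 0.395 and 4.51 ± 0.463 (SD, n = 3). This pair was chosen with its values known, so the ratio is given as a description. Itga8, whose product binds nephronectin and fibronectin with β1, was the third RGD receptor chain, at 1.17, 1.26 and 1.02 FPKM in vector and 1.76, 1.33 and 1.38 FPKM in S37A libraries. It did not overlap between groups and was not called, with a difference of 0.21 and a limma adjusted p of 0.0904.

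Itgb5 and Itgb3, which encode β chains that join αv, were not called. Itgb5, the second most abundant β chain, was at 98.9, 83.3 and 91.5 FPKM in vector and 85.0, 95.3 and 91.4 FPKM in S37A libraries, with a difference of -0.01, a standard error of 0.0685 and a limma adjusted p of 0.933. The spread within each group was larger than the distance between the group means. Itgb3, the β chain of the vitronectin and platelet fibrinogen receptors, was at 3.15, 3.12 and 3.30 FPKM in vector and 3.06, 3.42 and 3.09 FPKM in S37A libraries, with a difference of 0.00, a standard error of 0.0514 and a limma adjusted p of 0.991. For Itgb5 and Itgb3 the sign of these small differences changed between settings. Itgb6 and Itgb8, the β chains of the αv receptors that activate latent TGF-β, stayed under the filter at 0.0177 to 0.108 FPKM and 0.0405 to 0.155 FPKM.

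**Figure D2:**
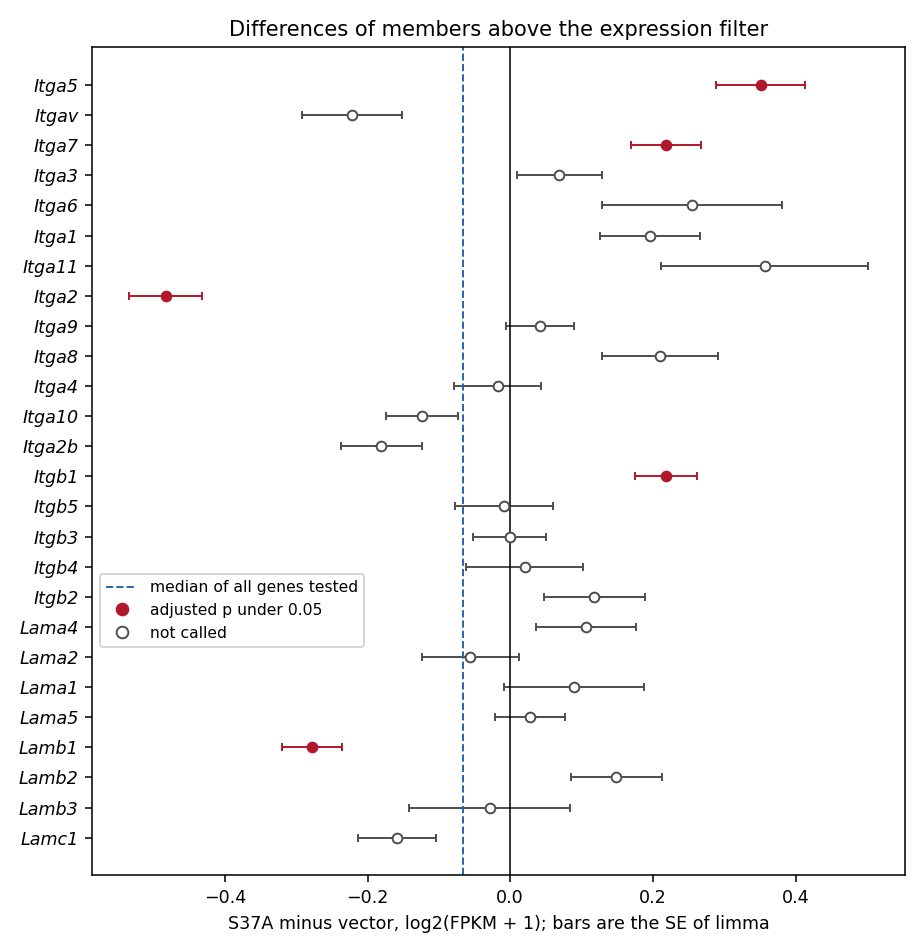
Difference S37A minus vector, on the log2(FPKM + 1) scale, for the integrin and laminin genes reported here that passed the 0.5 FPKM filter, ordered by chain class and level; bars are limma standard errors, filled points have an adjusted p under 0.05, and the dashed line is the median of all genes tested, -0.07. Itga5, Itga7 and Itgb1 are called to the right of 0, and Itga2 and Lamb1 to the left.

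Of the collagen receptor chains, Itga2 was lower in S37A and the other 3 were not called. Itga2, Itga1, Itga10 and Itga11 encode the 4 α chains that carry a collagen-binding I domain and pair with β1; α2β1 prefers fibrillar collagen I and α1β1 the network collagen IV. Itga2 (chr13:114833081-114932100, minus strand) was at 5.54, 5.37 and 4.93 FPKM in vector and 3.58, 3.38 and 3.52 FPKM in S37A libraries. Every S37A library was below every vector library, and the means were 5.28 ± 0.316 and 3.49 ± 0.10 FPKM (SD, n = 3). Vector libraries were 1.51-fold higher, with a difference of -0.48, a standard error of 0.0514 and a limma adjusted p of 0.00353. Of the 27 tested genes this was the smallest p and the largest difference in size. The call held in all 16 alternatives that tested the gene. A minimum mean of 5 FPKM left it out. The summed FPKM of the epithelial markers, given above, overlapped between the groups. The part of these markers in the values of Itga2 was not tested.

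Itga1 lies next to Itga2, 21.0 kb away on the same strand (chr13:114953096-115101964). It was at 8.11, 7.54 and 6.82 FPKM in vector and 9.42, 8.20 and 8.54 FPKM in S37A libraries, so its S37A values were all higher, opposite to Itga2. The means were 7.49 ± 0.646 and 8.72 ± 0.629 FPKM (SD, n = 3). The difference of 0.20 with a standard error of 0.0703 did not pass, at a limma adjusted p of 0.0760. Over the alternatives that p ran from 0.0156 to 0.192, and it was under the threshold in 4, among them median-ratio scaling (0.0489), quantile normalization (0.0452) and the fit without vector library 1 (0.0431). The FPKM ratio of Itga1 to Itga2 within a library was 1.46, 1.40 and 1.38 in vector and 2.64, 2.43 and 2.43 in S37A libraries. The groups lay far apart relative to their spread, at 1.42 ± 0.0413 and 2.50 ± 0.120 (SD, n = 3), again for a pair chosen with its values known.

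Itga11, whose product is a receptor for collagen I on fibroblasts, was at 5.25, 3.09 and 4.77 FPKM in vector and 5.50, 6.02 and 5.78 FPKM in S37A libraries. Vector library 2 was the low one, the groups did not overlap, and the difference of 0.36 with a standard error of 0.145 was not called, at a limma adjusted p of 0.104 (0.0456 without vector library 1). Itga10, known best from cartilage, was at 0.636, 0.660 and 0.703 FPKM in vector and 0.525, 0.547 and 0.516 FPKM in S37A libraries, with a difference of -0.12 and a limma adjusted p of 0.107. It was under the threshold with no filter (0.0464), with no intensity trend (0.0476) and with sample weights (0.0330). The groups did not overlap for any of the 4 collagen receptor chains, as for 47.8% of all genes tested, and only Itga2 was called. Their summed FPKM was 17.8 ± 1.53 in vector and 18.5 ± 0.457 in S37A libraries (SD, n = 3), which overlapped. Within that sum Itga2 held 29.7% ± 2.16 in vector and 18.9% ± 0.28 in S37A libraries.

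**Figure D3:**
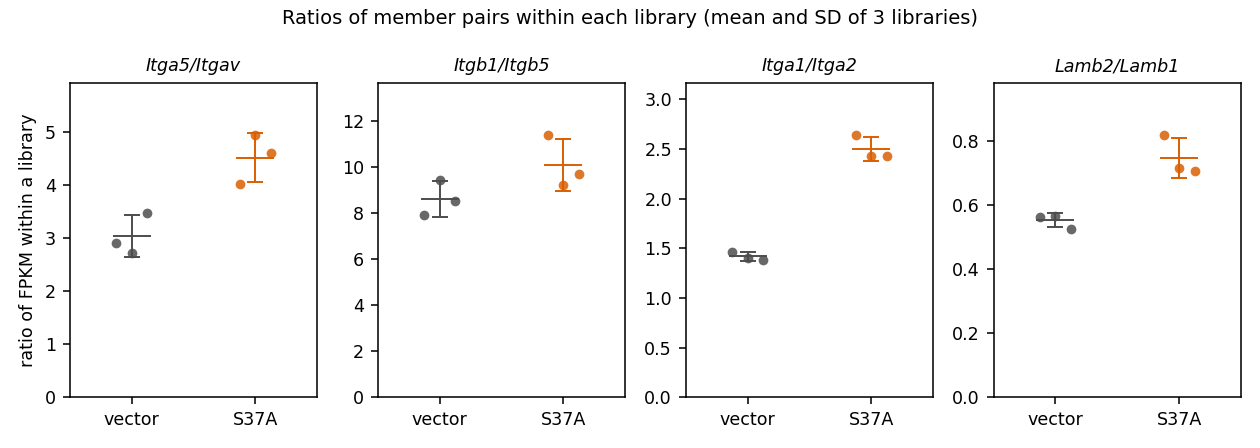
FPKM ratios within each library for Itga5 over Itgav, Itgb1 over Itgb5, Itga1 over Itga2 and Lamb2 over Lamb1, for 3 vector and 3 S37A libraries with mean and SD; each axis starts at 0. The groups do not overlap for Itga5/Itgav, Itga1/Itga2 and Lamb2/Lamb1, and they overlap for Itgb1/Itgb5.

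Since β-catenin acts on promoters and enhancers through the TCF/LEF factors, the bases before the RefSeq start sites (GRCm38.p6, the mm10 assembly) were searched for short motifs on both strands. RefSeq windows of 250 bases matched 23 of the 37 symbols, 26 windows in all, out of 32851 promoters. The 4 called genes that had a window are printed 5′ to 3′ with Itga1 beside its neighbour Itga2, with capitals for the motif matches. Itga7 had none, and Lamb1 is shown only as far as the upstream edge of its GENCODE gene.

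Itga5 (chr15:103366792-103367041, minus strand): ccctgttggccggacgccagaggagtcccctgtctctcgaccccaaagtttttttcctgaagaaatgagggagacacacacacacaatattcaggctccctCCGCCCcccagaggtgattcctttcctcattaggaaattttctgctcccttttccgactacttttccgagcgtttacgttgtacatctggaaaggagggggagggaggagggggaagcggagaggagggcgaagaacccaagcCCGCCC

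Itgb1 (chr8:128685404-128685653, plus strand): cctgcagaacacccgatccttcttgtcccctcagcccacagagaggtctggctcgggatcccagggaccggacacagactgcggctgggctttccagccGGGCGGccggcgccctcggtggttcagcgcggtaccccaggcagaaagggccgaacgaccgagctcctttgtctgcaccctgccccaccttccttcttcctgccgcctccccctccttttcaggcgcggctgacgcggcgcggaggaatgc

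Itga2 (chr13:114932101-114932350, minus strand): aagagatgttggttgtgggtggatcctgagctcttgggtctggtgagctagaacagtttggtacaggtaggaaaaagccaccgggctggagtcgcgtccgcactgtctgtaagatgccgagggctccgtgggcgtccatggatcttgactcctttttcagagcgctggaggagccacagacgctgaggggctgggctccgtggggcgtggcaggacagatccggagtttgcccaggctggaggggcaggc

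Itga1 (chr13:115101965-115102214, minus strand): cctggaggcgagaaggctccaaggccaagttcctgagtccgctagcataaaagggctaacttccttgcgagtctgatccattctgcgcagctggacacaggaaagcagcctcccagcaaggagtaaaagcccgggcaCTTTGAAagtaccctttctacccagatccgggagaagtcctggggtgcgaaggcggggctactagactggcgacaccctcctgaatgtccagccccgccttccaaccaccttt

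Lamb1 (chr12:31265043-31265233, plus strand): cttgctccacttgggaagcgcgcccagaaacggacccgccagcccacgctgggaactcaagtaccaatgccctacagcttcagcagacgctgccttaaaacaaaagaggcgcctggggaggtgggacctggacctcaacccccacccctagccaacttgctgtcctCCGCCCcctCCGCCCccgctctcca

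The TCF/LEF letters, AACAAAG with the variants ATCAAAG and TACAAAG and with TTCAAAG, occurred in 14.8% of all 32851 promoters. Among the 26 windows they were in that of Itga1, as CTTTGAA from -113 to -107 before the start, and in that of Itga10, from -187 to -181. The printed bases of Itga5, Itgb1, Itga2 and Lamb1 held no such letters, and the same was true of the full window of Lamb1. The GC box GGGCGG, present in 32.7% of all promoters, occurred in 9 of the 26 windows. Itga5 had it from -149 to -144 and from -6 to -1, Itgb1 from -151 to -146, and Lamb1 from -84 to -79 and from -75 to -70, while Itga2 had none. In the printed sequences no match of one motif overlapped a match of another. The AP-1 letters TGANTCA, in 6.75% of all promoters, were found in the Itgax window alone, and the CArG box, in 1.47%, in those of Itgb6 and Lama2. These are letter matches in a short window and say nothing about binding.

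Among the laminin receptor chains, Itga7 was higher in S37A. Integrin α7β1 is the main laminin receptor of muscle, and α3β1 and α6β1 or α6β4 are those of epithelium and many other cells. Itga7 (chr10:128933818-128958282, plus strand) was at 9.60, 8.83 and 9.69 FPKM in vector and 10.6, 11.4 and 11.2 FPKM in S37A libraries, without overlap. The means were 9.38 ± 0.473 and 11.1 ± 0.413 FPKM (SD, n = 3), a ratio of 1.18, with a difference of 0.22, a standard error of 0.0488 and a limma adjusted p of 0.0209. This call was the least firm of the 5: its p was 0.0713 without S37A library 2 and 0.0739 without S37A library 3. An exon of Itga7 overlaps Mettl7b on the other strand, and the kit does not mark strand; Mettl7b was listed at 0 in all 6 libraries. Itga3 was at 8.63, 9.48 and 10.1 FPKM in vector and 10.3, 9.59 and 9.77 FPKM in S37A libraries, with a difference of 0.07 and a limma adjusted p of 0.409. Itga6 was at 6.44, 8.82 and 7.48 FPKM in vector and 10.9, 8.02 and 8.82 FPKM in S37A libraries, with a wider spread, a difference of 0.25, a standard error of 0.126 and a limma adjusted p of 0.163. S37A library 1 was its highest value, and the groups overlapped for both Itga3 and Itga6. Itgb4, the partner of α6 in hemidesmosomes, was at 0.993 to 1.38 FPKM in vector and 1.07 to 1.36 FPKM in S37A libraries, with a difference of 0.02 and a limma adjusted p of 0.866.

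Itga9 and Itga4 form a subfamily whose receptors bind tenascin, osteopontin or VCAM-1. Itga9 was at 2.71 to 2.98 FPKM in vector and 2.91 to 3.04 FPKM in S37A libraries, with a difference of 0.04 and a limma adjusted p of 0.534. Itga4 was at 1.18 to 1.36 and 1.15 to 1.38 FPKM, with a difference of -0.02 and a limma adjusted p of 0.839, and its sign changed between settings. Neither chain separated the groups. Of these ligands, Tnc was called higher and Vcam1 lower, as given below, and Spp1, which encodes osteopontin, was not called, at a limma adjusted p of 0.231.

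The integrin chains of blood cells were low, and none was called (of these, only Itgb2 and Itga2b were tested). The αL, αM, αX, αD and αE chains (Itgal, Itgam, Itgax, Itgad, Itgae) and the β2 and β7 chains (Itgb2, Itgb7) form the receptors of leukocytes. Itgam, the α chain of the complement receptor of myeloid cells, was at 0.131, 0.121 and 0.129 FPKM in vector and 0.272, 0.345 and 0.204 FPKM in S37A libraries. The groups did not overlap, at 0.127 ± 0.00542 and 0.274 ± 0.0708 FPKM (SD, n = 3), a ratio of 2.15 at a level under the filter. It rested on about 28 to 66 fragments per library, and only a fit with no filter tested it, at a limma adjusted p of 0.0424. Itgax, found on dendritic cells and macrophages, was at 0.0128, 0.0489 and 0.0108 FPKM in vector and 0.0878, 0.0613 and 0.0682 FPKM in S37A libraries, from about 2 to 17 fragments per library. Itgb2, their shared β chain, was at 0.546, 0.563 and 0.388 FPKM in vector and 0.636, 0.538 and 0.703 FPKM in S37A libraries. With means of 0.499 and 0.626 FPKM, it passed the filter through its S37A values. Its groups overlapped, and its difference of 0.12 with a standard error of 0.0707 was not called, at a limma adjusted p of 0.240 (0.0416 with sample weights). Itgal was at 0.0039 to 0.0283 FPKM, Itgae at 0 to 0.0619 FPKM and Itgb7 at 0.114 to 0.295 FPKM over the 6 libraries, and Itgad was listed at 0 in all of them.

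Macrophage markers differed between the groups. Of the 20 measured, 12 were above the filter. Of these, 10 (83.3%) were called higher in S37A and 0 lower, against 6.06% and 19.9% of all genes tested. The list summed to 25.1 to 31.7 FPKM in vector and 65.1 to 73.5 FPKM in S37A libraries. Lyz2 alone made up much of that sum, at a mean of 14.1 FPKM in vector and 36.7 FPKM in S37A libraries. Csf1r and Cd14 were tested and not called. The vector means of C1qa (0.493 FPKM), C1qb (0.372), C1qc (0.478), Mpeg1 (0.456) and Csf1r (0.497) lay under the filter. These genes were tested through their S37A values, which favours a higher call, so the count is given as a description. Ptprc, the pan-leukocyte marker, was under the filter, at 0.0827 to 0.108 FPKM in vector and 0.122 to 0.153 FPKM in S37A libraries. The part of these markers in the values of Itgam, Itgax and Itgb2 was not tested, and in bulk RNA a different number of cells of a type and a different amount of RNA per cell cannot be told apart. Lymphocyte markers had 0 of 11 above the filter. Itga2b, the αIIb chain of platelets and megakaryocytes, went the other way, at 0.649, 0.601 and 0.631 FPKM in vector and 0.428, 0.377 and 0.504 FPKM in S37A libraries. It passed the filter through its vector values and was not called, with a difference of -0.18 and a limma adjusted p of 0.0532 (0.0291 with no intensity trend). Platelet markers had 4 of 8 above the filter, with Pf4 higher, Gp5 lower, Gp9 near 0 and Gp1bb listed at 0, and summed to 5.13 to 5.95 FPKM in vector and 5.21 to 6.08 FPKM in S37A libraries.

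**Figure D4:**
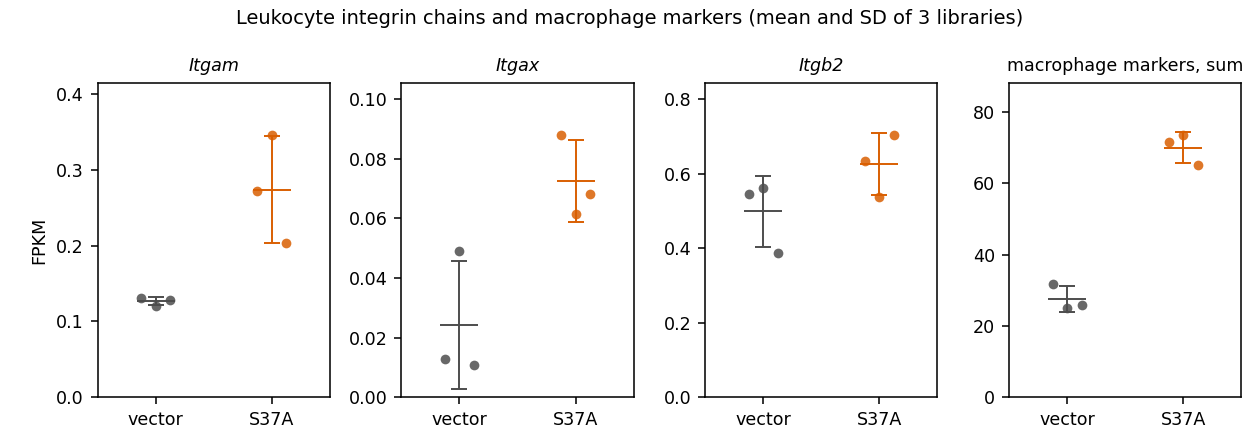
FPKM of the leukocyte chains Itgam, Itgax and Itgb2 and the summed FPKM of 20 macrophage markers in the 3 vector and 3 S37A libraries, with mean and SD; each axis starts at 0. Itgam, Itgax and the marker sum do not overlap between groups, while Itgb2 overlaps.

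Among the laminins, Lamb1 was lower in S37A and no other chain was called. Laminin β1 and γ1, from Lamb1 and Lamc1, are the common partners in the laminins of most tissues, while β2, from Lamb2, replaces β1 in those of vessels, muscle and nerve. Lamb1 (chr12:31265234-31329644, plus strand) was at 79.7, 87.8 and 86.1 FPKM in vector and 69.3, 69.4 and 69.8 FPKM in S37A libraries. Every S37A library was below every vector library and the S37A values lay close together, with means of 84.5 ± 4.28 and 69.5 ± 0.224 FPKM (SD, n = 3). Vector libraries were 1.22-fold higher, with a difference of -0.28, a standard error of 0.0415 and a limma adjusted p of 0.00799, and the call held in all 17 alternatives.

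Lamb2 was at 44.9, 49.7 and 45.3 FPKM in vector and 56.6, 49.7 and 49.3 FPKM in S37A libraries. Its groups overlapped and its difference of 0.15 with a standard error of 0.0640 was not called, at a limma adjusted p of 0.119. The FPKM ratio of Lamb2 to Lamb1 within a library was 0.563, 0.565 and 0.526 in vector and 0.816, 0.715 and 0.706 in S37A libraries, without overlap, so that Lamb2 held 35.3% ± 0.98 of the summed laminin β FPKM in vector and 42.4% ± 2.03 in S37A libraries (SD, n = 3). This pair, too, was chosen with its values known. Lamb3, a chain of the epithelial laminin-332, was at 0.657 to 1.09 FPKM in vector and 0.571 to 0.934 FPKM in S37A libraries, with a difference of -0.03 and a limma adjusted p of 0.859.

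Lamc1 was at 84.4, 91.0 and 81.1 FPKM in vector and 81.2, 74.2 and 74.1 FPKM in S37A libraries. Only S37A library 1 reached into the range of the vector group. The means were 85.5 ± 5.06 and 76.5 ± 4.07 FPKM (SD, n = 3), and the difference of -0.16 with a standard error of 0.0550 was not called, at a limma adjusted p of 0.0696 (0.0491 without S37A library 1). Lamc3 stayed under the filter, at 0.431, 0.440 and 0.439 FPKM in vector and 0.490, 0.540 and 0.538 FPKM in S37A libraries; these did not overlap, and a fit with no filter gave a limma adjusted p of 0.0794.

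The laminin α chains, which set the receptor binding of a trimer, did not separate the groups. Lama4, typical of vessels and mesenchyme, was at 18.1, 20.7 and 18.1 FPKM in vector and 22.2, 19.4 and 19.8 FPKM in S37A libraries, with a difference of 0.11, a standard error of 0.0697 and a limma adjusted p of 0.279. Lama2, the chain of muscle and Schwann cell basement membranes, was at 20.3, 16.8 and 17.2 FPKM in vector and 17.0, 17.2 and 17.6 FPKM in S37A libraries, with a difference of -0.06 and a limma adjusted p of 0.556. Together Lama4 and Lama2 made up most of the summed laminin α FPKM, 45.2% ± 4.03 and 43.0% ± 3.14 in vector libraries (SD, n = 3). Lama1, an early embryonic chain, was at 2.90, 2.14 and 2.32 FPKM in vector and 2.31, 2.95 and 2.74 FPKM in S37A libraries, with a difference of 0.09 and a limma adjusted p of 0.512. Lama5, the chain of most adult epithelial basement membranes, was at 2.00 to 2.18 and 2.06 to 2.23 FPKM, with a difference of 0.03 and a limma adjusted p of 0.693. Lama3 of laminin-332 stayed under the filter at 0.332 to 0.490 FPKM. Summed laminin α FPKM was 42.0 ± 1.84 in vector and 43.0 ± 1.00 in S37A libraries, and that of β 132 ± 6.41 and 122 ± 3.77 (SD, n = 3).

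The files give transcript models, and 10 of the 37 genes had several. Of the 50 models, 28 were above the filter, and 2 were called higher (Itga5, Itgb1) and 2 lower (Itga2, Lamb1), against 2.62% and 5.29% of all 14550 models tested. These 4 genes have 1 model each, and their p-values in the fit of models were higher than in the fit of genes (limma adjusted p of 0.0398 for Itga5, 0.0412 for Itgb1, 0.0179 for Itga2 and 0.0283 for Lamb1). Itga7, which also has 1 model, was called in the fit of genes but not in that of models, at a limma adjusted p of 0.0550. Leaving out any single library lowered the 2 higher calls to at most 1, and without S37A library 2 or 3 or vector library 2 no model was called (limma; 3 to 5 higher and 2 lower at an unadjusted p under 0.05). Over all models those 3 fits called 37 to 89 higher and 40 to 86 lower, against 381 and 770 with all libraries. Itga6 had 2 models, of 5888 and 6018 bases, and the shorter one held 15.7% ± 2.96 of its FPKM in vector and 16.4% ± 5.92 in S37A libraries (SD, n = 3). For Lamb3 the FPKM went to 1 model or the other depending on the library: the model of 4055 bases was listed at 0 in all 3 S37A libraries and in vector library 2, and the model of 4016 bases at 0 in vector library 1. Such splits between near-identical models are uncertain, and the gene sum is the value used here.

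Genes that act with integrins and laminins were read from 4 lists, to be set against the 6.06% of all genes called higher and 19.9% called lower. With median-ratio scaling these shares of all genes were 10.5% and 7.86%. The lists were chosen with earlier results of these data known, so their shares are given as a description. Inside the cell, adaptors such as talin, vinculin and paxillin tie integrin tails to actin. Of the 35 adaptor genes above the filter, 10 (28.6%) were higher in S37A, 2 lower and 23 not called, with a median difference of 0.09. Lpp, a zyxin-family LIM protein, was at 30.7 ± 0.648 FPKM in vector and 40.2 ± 1.18 FPKM in S37A libraries (SD, n = 3), with a difference of 0.38 and a limma adjusted p of 0.00260. Pdlim5 was at 87.5 ± 0.403 and 111 ± 4.94 FPKM (limma adjusted p of 0.00428), and Tns1, a tensin that binds β tails, at 76.4 ± 2.81 and 91.3 ± 0.869 FPKM (limma adjusted p of 0.00705). The 2 lower genes were Ptk2, the focal adhesion kinase, at 46.5 ± 0.753 and 41.1 ± 0.490 FPKM (limma adjusted p of 0.0115), and Pxn, paxillin, at 24.8 ± 0.511 and 22.7 ± 0.469 FPKM (limma adjusted p of 0.0422). Both calls were lost with median-ratio scaling (0.0608 and 0.381) and without S37A library 3 (0.0517 and 0.146), and that of Pxn also without vector library 2 or 3 or S37A library 1 or 2 (0.0730 to 0.123). Median-ratio scaling raised the count of higher adaptors to 17; without S37A library 3 it was 6.

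Outside the cell, 30 integrin ligands other than laminins passed the filter, and 9 (30.0%) were higher, 2 lower and 19 not called, with a median difference of 0.13. Fn1, fibronectin and thus the ligand of α5β1, was at 931, 975 and 972 FPKM in vector and 990, 984 and 992 FPKM in S37A libraries, and was not called, at a limma adjusted p of 0.347. The 3 with the smallest p among the higher ones were Tgfb3 at 124 ± 1.37 and 150.4 ± 2.71 FPKM, Tnc at 669 ± 23.4 and 849 ± 14.9 FPKM, and Ltbp1, which tethers latent TGF-β to the matrix, at 14.2 ± 0.585 and 17.9 ± 0.107 FPKM (SD, n = 3; limma adjusted p of 0.00353, 0.00355 and 0.00498). The lower 2 were the cell-surface ligands of leukocyte integrins. Vcam1, the ligand of α4β1, was at 15.9 ± 0.683 and 11.3 ± 0.427 FPKM with a limma adjusted p of 0.00301, and Icam1, the ligand of β2 integrins, at 27.9 ± 2.84 and 18.3 ± 0.610 FPKM with a limma adjusted p of 0.00448. Without S37A library 2 the higher ligands numbered 5.

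Of the non-laminin basement membrane genes and laminin-binding receptors, 23 were tested, and 4 (17.4%) were higher, 0 lower and 19 not called (limma; 10 higher and 0 lower at an unadjusted p under 0.05), with a median difference of 0.11. Dag1 of this list, at means of 57.9 FPKM in vector and 60.1 FPKM in S37A libraries, was not tested, since its status was not OK in every library. Sdc2, a syndecan, was at 42.5 ± 0.740 FPKM in vector and 49.2 ± 1.08 FPKM in S37A libraries (SD, n = 3), with a limma adjusted p of 0.00925. Npnt, nephronectin and the ligand of α8β1, was at 3.44 ± 0.191 and 4.98 ± 0.505 FPKM, with a difference of 0.43 and a limma adjusted p of 0.00982. Col4a2 was at 483 ± 0.992 and 521 ± 9.37 FPKM, with a limma adjusted p of 0.0398 that rose to 0.0587 to 0.106 when any library was left out. The fourth was Agrn, agrin. Col4a1, the partner chain of Col4a2 in collagen IV, and Nid1, which links laminin γ1 to collagen IV, were not called, at limma adjusted p-values of 0.685 and 0.750. The count of higher genes was 2 without vector library 2 or 3 or any S37A library and 7 without vector library 1.

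The membrane partners of integrins gave 4 higher (26.7%), 4 lower and 7 not called of 15, with a median difference of 0.00. Cav1, caveolin-1, was at 186 ± 5.38 FPKM in vector and 237 ± 14.8 FPKM in S37A libraries (SD, n = 3), with a limma adjusted p of 0.00730. Plaur, the urokinase receptor, was at 92.3 ± 7.24 and 114 ± 1.87 FPKM with a limma adjusted p of 0.0123. Tspan3, a tetraspanin, was higher with a limma adjusted p of 0.0336. Cd47, the integrin-associated protein that binds thrombospondin and αvβ3, was at 24.2 ± 2.09 and 18.3 ± 0.587 FPKM with a difference of -0.38 and a limma adjusted p of 0.00951. Tspan4 and Slc3a2, the CD98 heavy chain, were lower with limma adjusted p-values of 0.0290 and 0.0331. The calls of Tspan3, Tspan4 and Slc3a2 were lost without vector library 3 or any S37A library, with adjusted p-values of up to 0.113, 0.102 and 0.0873, and those of Tspan3 and Tspan4 also without vector library 2; median-ratio scaling gave Tspan4 0.179 and Slc3a2 0.0997. The count of higher partners was 2 to 3 and that of lower ones 1 to 4 when a library was left out. The tetraspanin Cd151, a close partner of the laminin-binding integrins, was not called, at a limma adjusted p of 0.943.

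**Figure D5:**
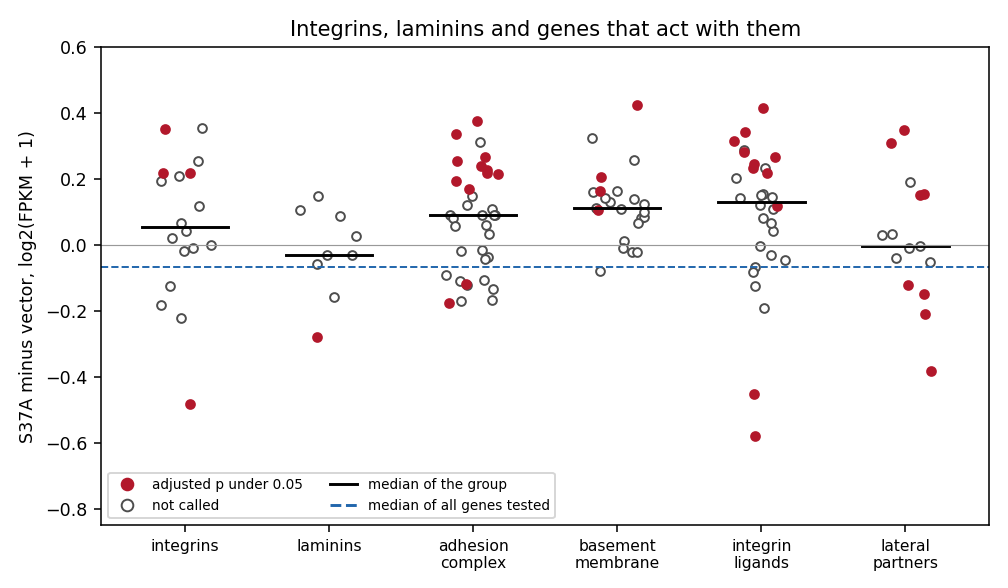
Difference S37A minus vector on the log2(FPKM + 1) scale for each tested integrin, laminin and gene of the 4 partner lists; filled points have an adjusted p under 0.05, black lines are medians of a group and the dashed line is the median of all genes tested, -0.07. Medians run from -0.03 for the laminins to 0.13 for the integrin ligands, and points lie on both sides of 0 in every group.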

How the data were processed

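The submitters' processing notes name bcl2fastq 1.8.3, Cufflinks and TopHat with the mm10 build; versions of the last 2 are not given in the sources used here. The deposited files hold, per the file headers, FPKM per RefSeq transcript model with confidence bounds, and coverage, a signal that the authors deposited beside it and that was a constant multiple of FPKM within a library. The labels' protocols give a SMART-Seq v4 kit with random and oligo(dT) primers, which does not mark strand. FPKM of models with 1 symbol was summed, and 5 genes with a status other than OK (Dag1, Eftud2, Fhl1, Nrp2, Trim32) were left out. limma 3.58.1 in R 4.3.3 was fitted to log2(FPKM + 1) of genes whose mean reached 0.5 FPKM, over all 6 libraries, using an intensity trend and no block. The script was tested on simulated data. The depth behind each value comes from interval widths and covers counting error only.

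The genes and gene lists were chosen with earlier results of these data known. Genes above the filter are all named, except that some results are not reported here; of each partner list, the 3 called genes with the smallest p in each direction are named. Fn1, Spp1, Nid1, Col4a1, Agrn and Cd151 were named after their values were seen.

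The alternatives changed the pseudocount, the filter, the scaling, the trend and the libraries used. Positions are from GENCODE M21 and are 1-based. Promoter sequences are from RefSeq on GRCm38.p6.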

Additional observations from a re-analysis of the deposited data

How the results depend on the processing

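For the tested integrins and laminins and the called partner genes with the smallest p, 46 genes in all, 15 to 17 alternatives each gave 750 values. Of these, 653 kept direction and side of the threshold, 48 lost the call, 18 gained one, 31 differed in sign without a call on either side and 0 reversed a called direction. These sign changes included Itga4, Itgb3, Itgb4, Itgb5, Lama2 and Lamb3. The cause of the changes below was not tested, except where fewer genes or libraries were used.

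The count of integrin and laminin genes higher in S37A, 3, became 7 with sample weights and ran from 2 to 5 with a library left out, while the 729 higher of all genes became 1238 and ran from 298 to 747. The count of those lower, 2, became 4 with no filter, 1 where the mean had to reach 5 FPKM, 4 with no intensity trend and 6 with sample weights, and ran from 2 to 4 with a library left out; the 2393 lower of all genes became 3655 with sample weights and ran from 606 to 2401. Called transcript models, 2 higher and 2 lower, ran from 0 to 1 and from 0 to 2 with a library left out. The higher adaptors, 10, became 17 with median-ratio scaling and 5 among genes with 1 transcript model, and ran from 6 to 9 with a library left out. The lower adaptors, 2, became 0 with median-ratio scaling, 1 with quantile normalization, without the 100 most abundant genes and with no trend, 6 with sample weights and 0 among genes with 1 model, and ran from 0 to 3 with a library left out. The higher basement membrane partners, 4, became 2 with no filter, 9 with median-ratio scaling, 7 with quantile normalization, 2 with no trend and 9 with sample weights, and ran from 2 to 7 with a library left out. The higher ligands, 9, became 14 with sample weights and ran from 5 to 12 with a library left out. The higher lateral partners, 4, became 2 with no filter and 2 among genes with 1 model, and ran from 2 to 3. The lower ones, 4, became 2 with no filter, 1 with median-ratio scaling, 2 with quantile normalization, 1 without the 100 most abundant genes and 1 among genes with 1 model, and ran from 1 to 4.

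The labels do not say whether same-numbered libraries share an origin. Deviations from the group means correlated at -0.12, 0.021 and 0.104 for same-numbered libraries and at -0.126 to 0.097 for the other pairs. With so few libraries this cannot decide whether they are paired. With the replicate block, called integrin and laminin genes were 2 higher and 2 lower, Itga7 having an adjusted p of 0.0564 in limma. The block gave 0 higher and 0 lower models (limma; 5 and 2 at an unadjusted p under 0.05), where 11 higher and 14 lower of all 14550 models were called. It gave 1 lower adaptor, 2 higher basement membrane partners, and 2 higher and 1 lower lateral partners. A count model planned for whole reads was not run, since whole reads could not be recovered from FPKM. Itgam and Itgax rest on few fragments, which limits both.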
